A study of Mus musculus with 15 samples.

Results

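Small nucleolar RNAs (snoRNAs) are short guide RNAs of the nucleolus, and small Cajal body RNAs (scaRNAs) are their relatives in the Cajal body. The RNAs described here were all 54 genes whose symbol in the platform annotation starts with Snora, Snord or Scarna and a number, of 19938 genes with 1 symbol on the array. They comprised 31 C/D RNAs, 20 H/ACA RNAs and 3 Cajal body RNAs, and a gene measured by several transcript clusters was represented by its brightest cluster. Liver of male C57BL/6J mice was measured on GeneChip Mouse Gene 1.0 ST arrays, with 3 arrays in each of 5 groups. These were Ath+HF+BCAA at 68w, Ath+HF at 68w, Ath+HF+BCAA at 38w, Ath+HF at 38w and basal diet at 38w. The Ath+HF diet is atherogenic and high in fat, the BCAA groups received it with 3% branched-chain amino acids, and feeding began at week 8 and lasted 30 or 60 weeks. Basal diet was measured at 38w alone. In the comparison of 68w with 38w, age, time on diet and a batch of handling therefore cannot be told apart. Nothing in the sources ties an array to a mouse of its own, and the sources used here do not tell whether the tissue taken at 68w held tumour. The p-values cover only the spread from array to array, part or all of which could be technical.

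A snoRNA works within a ribonucleoprotein particle that it directs to a target RNA by base pairing. C/D RNAs guide 2'-O-methylation by fibrillarin, H/ACA RNAs guide pseudouridylation by dyskerin, and a few members of both classes take part in cleavage of the ribosomal RNA precursor instead. scaRNAs guide the same modifications of spliceosomal RNAs. In mammals most are cut out of introns of host genes, many of which encode ribosomal proteins or are noncoding genes that serve mainly as carriers of snoRNAs. In RefSeq's gene table of GRCm38.p6 the median length was 68 bases for the C/D RNAs (45 to 148) and 125 bases for the H/ACA RNAs (61 to 205). For the Cajal body RNAs it was 118 bases (62 to 275). The ranges of the classes overlapped, so length alone does not tell the class of an RNA. By position, 53 of the 54 lie inside a longer gene, taken here as the host, and 28 of these have a host that is itself measured, which amounts to 24 host genes. Probes inside an intron can also detect the unspliced host transcript, and the arrays cannot tell both apart.

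A pair of the 54 RNAs lay in each of 10 hosts. Many host transcripts of snoRNAs are known to begin with a run of pyrimidines. The starts of 6 of the 10 hosts are shown, chosen after the changes of their RNAs had been seen. Each line holds 40 bases before and 20 bases after the annotated start from RefSeq (GRCm38.p6), on the strand of the transcript, and capitals mark the longest run of at least 8 C or T in any order that touches the 10 bases before or 20 bases after the start.
Snhg12 (chr4:132308638-132308697, + strand): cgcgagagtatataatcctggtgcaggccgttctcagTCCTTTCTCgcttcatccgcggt
2410006H16Rik (chr11:62602837-62602896, + strand): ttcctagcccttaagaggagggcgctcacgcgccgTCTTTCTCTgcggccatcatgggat
Rpl13a (chr7:45128726-45128785, - strand): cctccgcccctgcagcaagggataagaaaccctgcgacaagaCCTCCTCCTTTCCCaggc
Rack1 (chr11:48800320-48800379, + strand): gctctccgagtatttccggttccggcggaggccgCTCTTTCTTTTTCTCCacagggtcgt
Snhg3 (chr4:132353667-132353726, - strand): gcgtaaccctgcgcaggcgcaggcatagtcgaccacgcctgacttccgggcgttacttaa
Rps3a1 (chr3:86142649-86142708, - strand): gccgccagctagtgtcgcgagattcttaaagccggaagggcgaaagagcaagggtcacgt
The first 4 of these starts hold such a run, of 9, 9, 14 and 16 bases, and the other 2 do not. Of the 8 hosts with a pair that are in the promoter table, 4 hold one, against 16.9% of all 32851 promoters in the table. Ncl and Rps3, which are among the 8 but not shown, hold none. A run is a description of these letters and says nothing of its use.

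The question of the age comparison was how the livers at 68w differed from those at 38w over both Ath+HF diets. The RNAs were mostly lower at 68w: 30 of 54 were lower (55.6%) and 7 were higher (13%), where 22.7% of all 19938 genes were lower and 25.9% were higher (limma, Benjamini-Hochberg adjusted p under 0.05, which is what "called" means from here on). The falls were also large. Of the 54, 19 were called lower by 1 or more on the log2 scale (35.2%, against 1.06% of all genes) and 0 were called higher by that much (0.316% of all genes). Among the 100 genes with the largest falls on the array were 16 of these RNAs, and Snora16a had the largest fall of all 19938. The median log2 difference was -0.42 over the 54, -0.51 over the C/D RNAs and -0.38 over the H/ACA RNAs, with 0.04 over all genes. In the C/D class 18 of 31 were lower and 3 higher, in the H/ACA class 11 of 20 were lower and 2 higher, and of the Cajal body RNAs 1 was lower and 2 were higher. In 18 of the lower and 5 of the higher RNAs the 6 arrays at 68w did not overlap the 6 at 38w (33.3% and 9.26% of the 54), against 9.46% and 7.98% of all genes. In bulk liver, fewer cells of a type and less RNA per cell cannot be told apart.

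**Figure D1:**
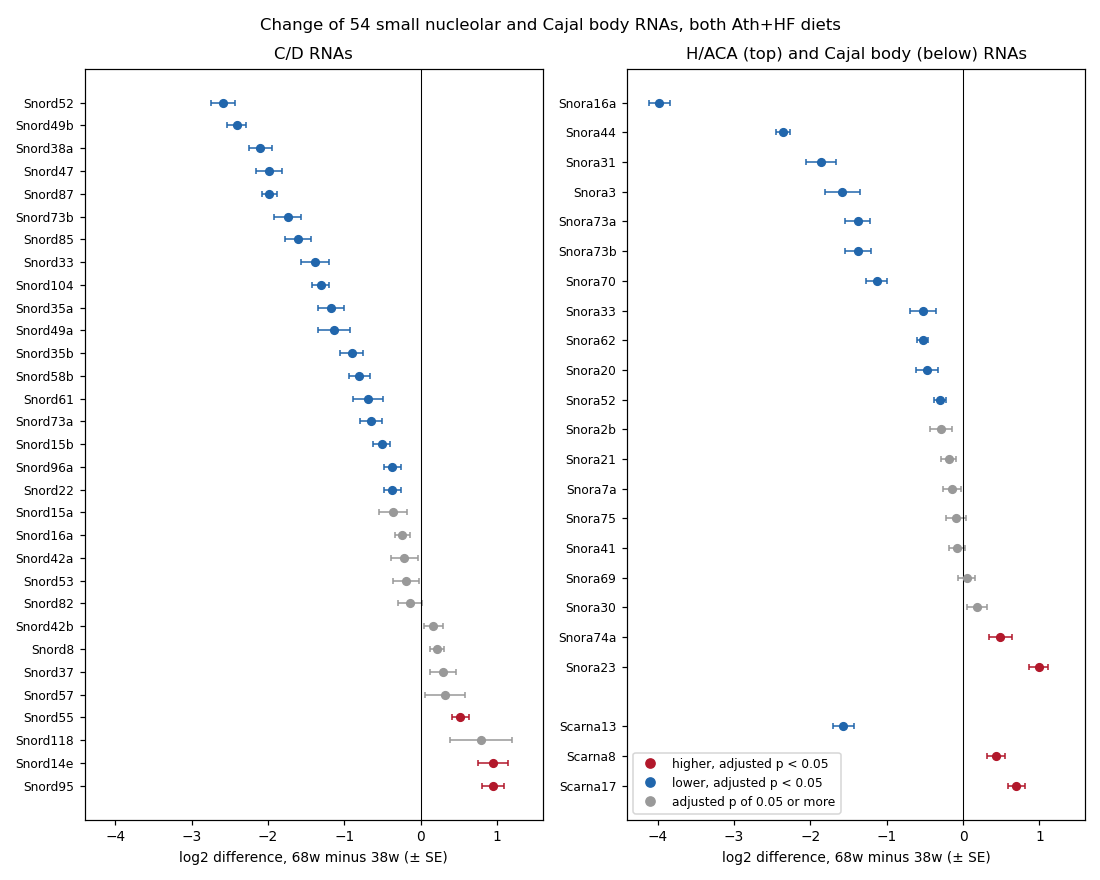
Change of each of the 54 RNAs between the ages, as the log2 difference of 68w minus 38w over both Ath+HF diets (points, with bars of 1 SE), for C/D RNAs on the left and H/ACA and Cajal body RNAs on the right. Blue points are the 30 lower RNAs, red points the 7 higher and grey points the 17 not called. Snora16a lies furthest left at -3.98.

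The H/ACA RNAs of Snhg12, a noncoding carrier of snoRNAs, changed most in their class. Snora16a measured 7.95, 7.94 and 7.91 in Ath+HF+BCAA and 8.00, 8.13 and 8.32 in Ath+HF livers at 68w, against 11.75, 11.94 and 11.66 in Ath+HF+BCAA and 11.77, 12.68 and 12.30 in Ath+HF livers at 38w, on the deposited log2 scale. The 6 arrays at 68w lay within a narrow band, far below all 9 arrays at 38w, where basal diet had 11.56, 12.30 and 11.84. The log2 difference was -3.98 ± 0.14 (SE, adjusted p = 8.96e-11). Snora44, from the same host, measured 8.29, 8.34 and 8.29 in Ath+HF+BCAA and 8.72, 8.56 and 8.51 in Ath+HF livers at 68w, against 10.45, 10.42 and 10.44 in Ath+HF+BCAA and 11.09, 11.35 and 11.14 in Ath+HF livers at 38w. Its arrays did not overlap either, with a log2 difference of -2.36 ± 0.09 (adjusted p = 3.61e-10). The pair fell together but not by the same amount: the difference of Snora16a minus Snora44 within an array changed by -1.61 on the log2 scale, with no overlap of the ages.

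U17 RNA, encoded by Snora73a and Snora73b of the noncoding host Snhg3, is one of the H/ACA RNAs known for cleavage of the ribosomal RNA precursor rather than for pseudouridylation. Snora73a measured 9.79, 9.82 and 9.82 in Ath+HF+BCAA and 9.58, 9.31 and 9.64 in Ath+HF livers at 68w, against 11.13, 11.12 and 10.41 in Ath+HF+BCAA and 10.72, 11.56 and 11.31 in Ath+HF livers at 38w. The arrays of the ages did not overlap. Snora73a differed by -1.38 ± 0.16 and Snora73b by -1.37 ± 0.17 (adjusted p = 6.84e-06 and 1.28e-05). The difference between the copies moved by only -0.01, so they fell alike, although near-identical copies may share probes and then do not count as separate measurements.

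Other H/ACA RNAs fell while the gene around them was not called lower. Snora31 lies in Tpt1, which encodes translationally controlled tumour protein. It measured 7.15, 7.05 and 7.13 in Ath+HF+BCAA and 7.04, 6.68 and 6.50 in Ath+HF livers at 68w, against 8.90, 8.80 and 7.85 in Ath+HF+BCAA and 8.72, 9.59 and 8.84 in Ath+HF livers at 38w, with no overlap and a log2 difference of -1.86 ± 0.20 (adjusted p = 4.47e-06). Tpt1 itself differed by -0.09 ± 0.06 and was not called. Snora3, in the large-subunit protein gene Rpl27a, fell by 1.58 (adjusted p = 5.6e-05) while Rpl27a rose by 0.30. Snora70, in the large-subunit protein gene Rpl10, fell by 1.13 (adjusted p = 1.88e-05). Rpl10 differed by 0.16 ± 0.06 (adjusted p = 0.0497), a call at the limit of 0.05. Snora69 of Rpl39 (log2 difference 0.05 ± 0.11) and Snora41 of Eef1b2 (-0.08 ± 0.10) had the smallest differences of the class and were not called. Snora41 was the dimmest RNA of the class. Its mean level of 5.28 lay under 6.2, the limit for dim genes.

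Snora23 went the other way. It measured 9.83, 9.51 and 9.73 in Ath+HF+BCAA and 10.49, 10.26 and 9.81 in Ath+HF livers at 68w, against 8.99, 9.05 and 8.48 in Ath+HF+BCAA and 9.28, 8.96 and 8.93 in Ath+HF livers at 38w. Every array at 68w was above every array at 38w, with a log2 difference of 0.99 ± 0.12 (adjusted p = 1.38e-05). Its host Ipo7, which encodes a nuclear import receptor, fell by 0.50.

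**Figure D2:**
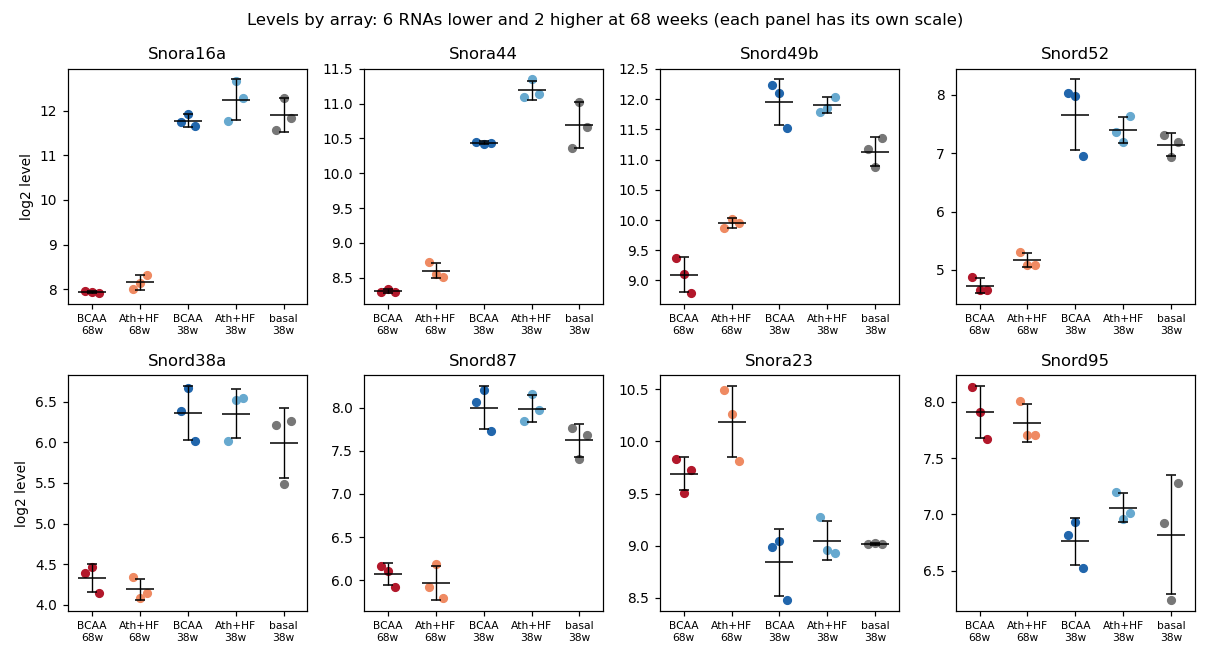
Log2 level on each of the 15 arrays (points, 3 for each group) with the group mean and SD (black), for 6 RNAs lower at 68w and for Snora23 and Snord95, which were higher. The groups run from Ath+HF+BCAA at 68w on the left to basal diet on the right, and in all 8 panels the 6 arrays at 68w are apart from the 6 Ath+HF arrays at 38w.

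Among C/D RNAs the largest fall was that of Snord52, in the noncoding gene 1110038B12Rik. It measured 4.88, 4.65 and 4.65 in Ath+HF+BCAA and 5.30, 5.09 and 5.09 in Ath+HF livers at 68w, against 8.04, 7.99 and 6.95 in Ath+HF+BCAA and 7.36, 7.20 and 7.64 in Ath+HF livers at 38w. The ages were apart on all arrays, with a log2 difference of -2.59 ± 0.16 (adjusted p = 3.12e-08). Snord49b, in the noncoding gene 2410006H16Rik, measured 9.37, 9.11 and 8.79 in Ath+HF+BCAA and 9.87, 10.02 and 9.95 in Ath+HF livers at 68w, against 12.24, 12.10 and 11.52 in Ath+HF+BCAA and 11.79, 11.86 and 12.04 in Ath+HF livers at 38w. It differed by -2.41 ± 0.13 without overlap (adjusted p = 1.09e-08), and Snord49a of the same host by -1.13 ± 0.21 (adjusted p = 0.000421), with overlapping arrays. Thus both RNAs of this host fell, Snord49b by more.

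Large falls were also seen for RNAs of other hosts. Snord47 of Gas5, a gene whose spliced RNA is unstable and whose introns carry many C/D RNAs, measured 7.28, 7.23 and 6.85 in Ath+HF+BCAA and 7.31, 7.12 and 6.86 in Ath+HF livers at 68w, against 9.69, 9.50 and 8.55 in Ath+HF+BCAA and 9.25, 8.83 and 8.77 in Ath+HF livers at 38w. Its log2 difference was -1.99 ± 0.17 (adjusted p = 4.73e-07), whereas Gas5 differed by -0.20 ± 0.09 and was not called. Snord87 of Snhg6 differed by -1.98 ± 0.10 (adjusted p = 1.01e-08) and Snord104 of Gm36220 by -1.31 ± 0.11 (adjusted p = 4.73e-07), each without overlap. Snord85 differed by -1.61 ± 0.17 (adjusted p = 2.95e-06), also without overlap. Grouped by host, 12 of the 15 RNAs of noncoding hosts were lower and 2 higher, with a median log2 difference of -1.38. Of the 21 RNAs in ribosomal protein genes 13 were lower and 1 higher, with a median of -0.53, and of the 17 in other protein-coding genes 5 were lower and 4 higher, with a median of -0.09. Of all genes 22.7% were lower and 25.9% higher, and the counts for other protein-coding genes lay near these shares. This grouping was made after the values had been seen and carries no test.

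Snord38a measured 4.39, 4.47 and 4.14 in Ath+HF+BCAA and 4.34, 4.08 and 4.14 in Ath+HF livers at 68w, against 6.39, 6.67 and 6.02 in Ath+HF+BCAA and 6.01, 6.52 and 6.54 in Ath+HF livers at 38w. The ages did not overlap. It fell by 2.10 (adjusted p = 1.1e-07), and it is one of 5 RNAs with a mean level under 6.2, the limit below which genes were treated as dim.

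RNAs cut from the same host did not always move together. Rack1, which encodes a scaffold protein of the ribosome, holds a pair called in opposite directions. Snord95 measured 8.13, 7.91 and 7.67 in Ath+HF+BCAA and 8.01, 7.71 and 7.71 in Ath+HF livers at 68w, against 6.82, 6.93 and 6.52 in Ath+HF+BCAA and 7.20, 6.96 and 7.01 in Ath+HF livers at 38w, and was higher by 0.95 ± 0.15 (adjusted p = 9.63e-05). Snord96a differed by -0.37 ± 0.11 (adjusted p = 0.0121). In Rps3a1, a small-subunit protein gene, Snord73b fell by 1.74 and Snord73a by 0.65, where the host fell by 0.64. Of the 10 pairs, 7 had the same call, which counts Ncl and Rpl23a, where neither RNA was called, and 2 had opposite calls. In 5 the difference within an array did not overlap between the ages. The order within a pair was set by these same values, and other pairs of genes were not examined, so this count has no share beside it.

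The 28 RNAs with a measured host covered a wider range of change than their hosts, with a like median. Of the 28 RNAs 12 were lower and 3 higher, with a median log2 difference of -0.26 and a range of -1.99 to 0.99. Of the 24 hosts 14 were lower (58.3%) and 5 higher (20.8%), with a median of -0.25 and a range of -0.89 to 0.43. Of all genes 22.7% were lower and 25.9% higher. In log2 difference 14 of the 28 RNAs lay below their host and 14 did not. Of the 12 lower RNAs with a measured host, 6 had a lower host, 3 had a higher host and 3 had one that was not called. Among higher RNAs were Snord14e (U14, known from yeast and mammals for its part in making the small-subunit RNA) in the chaperone gene Hspa8, and Scarna8 in the mitotic spindle gene Haus6. Snord14e measured 10.66, 10.56 and 10.19 in Ath+HF+BCAA and 11.14, 10.44 and 10.22 in Ath+HF livers at 68w, against 9.75, 9.71 and 9.77 in Ath+HF+BCAA and 10.05, 8.95 and 9.26 in Ath+HF livers at 38w, and rose by 0.95 ± 0.20 (adjusted p = 0.00111). In basal livers it measured 10.64, 9.81 and 10.62, and neither 68w group was called different from basal diet.

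**Figure D3:**
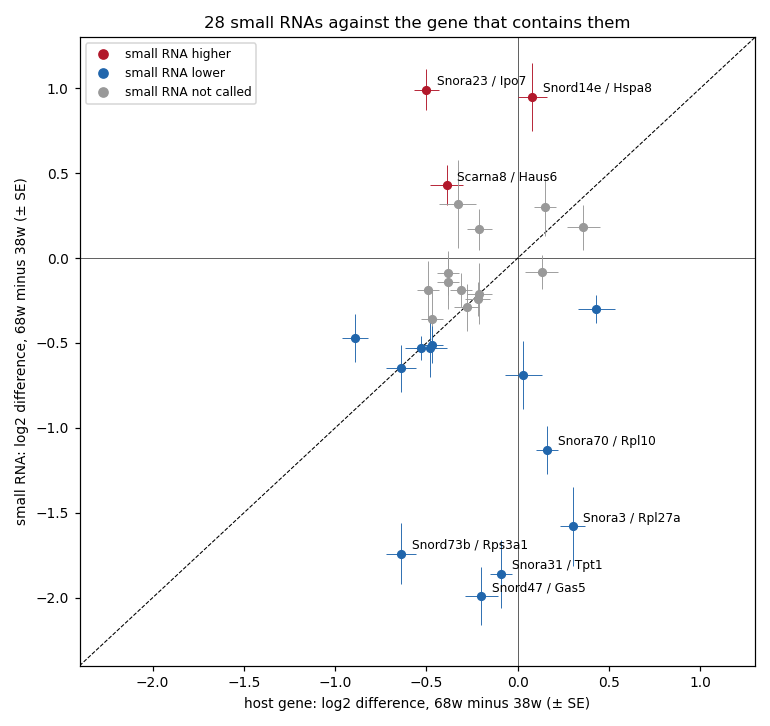
Log2 difference between the ages for the 28 RNAs with a measured host (vertical axis) against that of the host gene (horizontal axis), with bars of 1 SE and a dashed line of equal change. Hosts stay between -0.89 and 0.43, while Snord47, Snora31, Snord73b, Snora3 and Snora70 lie far below the line and Snora23 above it.

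The Cajal body RNAs split. Scarna13, in the noncoding host Snhg10, measured 9.09, 9.44 and 9.64 in Ath+HF+BCAA and 8.85, 8.84 and 8.31 in Ath+HF livers at 68w, against 10.48, 10.65 and 9.98 in Ath+HF+BCAA and 10.56, 11.03 and 10.87 in Ath+HF livers at 38w. The ages did not overlap, with a log2 difference of -1.57 ± 0.14 (adjusted p = 1.06e-06). Scarna17 measured 11.07, 11.06 and 10.47 in Ath+HF+BCAA and 10.80, 10.78 and 10.99 in Ath+HF livers at 68w, against 10.11, 9.91 and 10.27 in Ath+HF+BCAA and 10.38, 10.06 and 10.25 in Ath+HF livers at 38w. It was higher by 0.70 ± 0.11 (adjusted p = 9.67e-05) and did not overlap, whereas Scarna8 was higher by 0.43 ± 0.12 with overlapping arrays (adjusted p = 0.0075).

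RNAs with no called change were also found in both main classes. Snord118 (U8, known for processing of the large-subunit RNA, and the one RNA of the 54 without a host) differed by 0.79 ± 0.41 (adjusted p = 0.128). Its arrays spread widely, with 8.19, 7.76 and 7.63 in Ath+HF+BCAA and 10.01, 9.01 and 9.18 in Ath+HF livers at 68w, against 8.53, 8.24 and 5.76 in Ath+HF+BCAA and 7.36, 8.82 and 8.35 in Ath+HF livers at 38w. Snord82 of Ncl differed by -0.14 ± 0.16 and Snord42b of Rpl23a by 0.17 ± 0.12, the smallest of the C/D class. Length and change had a Spearman correlation of 0.07 across the 54 RNAs, and mean level and change one of -0.08, as a description across RNAs of the same arrays. The classes differed in this. For mean level the correlation was -0.49 in the H/ACA class, where brighter RNAs tended to fall more, and 0.12 in the C/D class. For length it was -0.04 in the H/ACA class and 0.22 in the C/D class. The median SE of the log2 difference was 0.14 over the 54 and 0.09 over all genes, so single RNAs of this kind were measured less precisely than the typical gene.

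Genes of the proteins that form and build the particles were compared in the same way. Of the 4 genes of C/D core proteins, Nop58 (log2 difference -0.55) and Nop56 (-0.33) were lower, and the methyltransferase Fbl (-0.17) and Snu13 (-0.17) were not called. Of the 4 genes of H/ACA core proteins, Nop10 (-0.55), Nhp2 (-0.43) and the pseudouridine synthase Dkc1 (-0.41) were lower and Gar1 (-0.11) was not called. Of 15 measured assembly and trafficking genes 8 were lower and 3 higher, among them the H/ACA assembly factors Naf1 (-0.83) and Shq1 (0.52). Of 11 Cajal body and SMN genes 7 were lower and 1 higher, with coilin (Coil) at -0.36, and of 25 pre-rRNA processing genes 13 were lower and 1 higher. The lower share ran from 50% to 75% over these 5 lists, where 22.7% of all genes were lower, and the higher share from 0% to 20%, where 25.9% of all genes were higher. In the same comparison 7 of 10 macrophage markers were lower and 0 higher, with a median of -0.76, and their part in these values was not tested. The medians of the 5 lists lay between -0.42 and -0.20, against 0.04 over all genes.

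The RNAs were then compared between the ages in each diet, which share no array. In Ath+HF+BCAA livers 26 were lower and 5 higher at 68w, where 18.3% of all genes were lower and 20.5% higher. In Ath+HF livers 24 were lower and 8 higher, where 20% of all genes were lower and 17.6% higher, and with array medians set equal these counts were 30 and 5. Without replicate 1 or 2 of Ath+HF at 38w 5 were higher, and without replicate 2 of Ath+HF at 68w 4. Of the lower RNAs 20 were shared, which is 76.9% of those in Ath+HF+BCAA and 83.3% of those in Ath+HF livers, and of the higher RNAs 4 were shared, 80% and 50%. Snora16a differed by -3.85 in Ath+HF+BCAA and -4.10 in Ath+HF livers, Snora44 by -2.13 and -2.60, and Snord87 by -1.94 and -2.03. The log2 differences of the 2 diets had a Pearson correlation of 0.85 across the 54 RNAs, and 49 had the same sign. The shared calls, the correlation and the signs have no value over all genes beside them. Whether this agreement of the diets is particular to these RNAs therefore cannot be told. Markers of macrophages, another cell type of the liver, went opposite ways. In Ath+HF+BCAA livers 5 of 10 were higher and 0 lower at 68w (mean log2 levels per array of 10.25 to 10.71, against 9.79 to 10.21 at 38w), while in Ath+HF livers 9 were lower and 0 higher (8.17 to 8.31, against 9.99 to 10.26 at 38w). Hepatocyte markers changed little in the mean of both diets, with 2 of 9 higher, 2 lower and a median of 0.11.

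**Figure D4:**
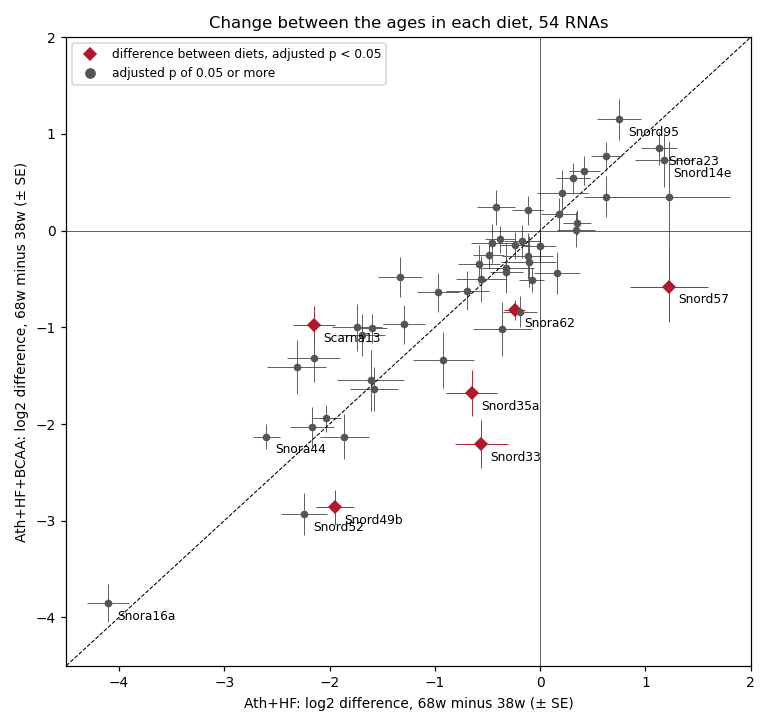
Log2 difference between 68w and 38w of each of the 54 RNAs in Ath+HF+BCAA livers (vertical axis) and in Ath+HF livers (horizontal axis), with bars of 1 SE and a dashed line of equal change. Red diamonds are the 6 RNAs for which the difference between the diets itself was called, of which 5 lie below the line and Scarna13 above it.

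In 3 groups replicate 3 stood apart for these RNAs. Replicate 3 of Ath+HF+BCAA at 38w was the lowest of its group for 43 of the 54 RNAs (79.6%), where it was the lowest for 37.2% of all genes. Replicates 3 of Ath+HF+BCAA and of Ath+HF at 68w were the lowest for 35 and 38 of them (64.8% and 70.4%), where they were the lowest for 30.4% and 35.2% of all genes. Without the array at 38w, 34 RNAs were lower and 7 higher in the mean of both diets, and 30 were lower and 5 higher in Ath+HF+BCAA livers. What set these arrays lower was not tested.

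Next, BCAA was compared with no BCAA at 68w. Of the 54 RNAs 10 were lower (18.5%) and 6 higher (11.1%) in Ath+HF+BCAA livers, where 16.4% of all genes were lower and 19.8% higher. The share of lower RNAs thus lay near that of all genes. The counts rested on single arrays: without replicate 3 of Ath+HF at 68w 11 were lower and 1 higher, and without replicate 1, 2 or 3 of Ath+HF+BCAA at 68w they were 10 and 2, 8 and 2, and 6 and 4. At 68w the arrays labelled Ath+HF+BCAA had higher macrophage markers (8 of 10 called, array means of 10.25 to 10.71, against 8.17 to 8.31 in Ath+HF) and stellate cell and fibroblast markers (7 of 8 called, 9.43 to 9.56, against 8.35 to 8.50). The part of this cell makeup in the following values was not tested, and neither was a swap of labels between the groups at 68w. The mean of both diets at 68w would be the same after such a swap, whereas every direction of BCAA at 68w would turn round, and the age comparison within each diet would change, as would the test of whether BCAA acted differently at 68w and 38w.

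The Rpl13a introns carry C/D RNAs that in hamster and mouse cells are known to take part in the response to lipid overload. Snord33 measured 6.78, 6.54 and 6.06 in Ath+HF+BCAA livers, against 8.09, 8.03 and 8.02 in Ath+HF livers at 68w, with no overlap and a log2 difference of -1.59 ± 0.25 (adjusted p = 0.00012). Snord35a measured 8.84, 8.58 and 8.18 in Ath+HF+BCAA livers, against 9.68, 9.71 and 9.33 in Ath+HF livers, and differed by -1.04 ± 0.24 (adjusted p = 0.00329). Both RNAs of this host were thus lower. Snord35b went the other way, with 9.11, 8.97 and 8.65 in Ath+HF+BCAA livers, against 8.31, 8.26 and 8.24 in Ath+HF livers, and was higher by 0.64 ± 0.21 (adjusted p = 0.0289). It was not called without any 1 of replicates 1, 2 and 3 of Ath+HF or of replicates 1 and 2 of Ath+HF+BCAA at 68w.

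The other changes were spread over hosts of different kinds. Snord57, in the gene of the C/D core protein Nop56, measured 10.97, 10.59 and 10.09 in Ath+HF+BCAA livers, against 11.76, 11.96 and 11.73 in Ath+HF livers, and differed by -1.27 ± 0.37 (adjusted p = 0.0135), while Nop56 itself was not called (0.27). Snora62 of Rpsa measured 6.65, 6.45 and 6.62 in Ath+HF+BCAA livers, against 7.23, 7.25 and 7.21 in Ath+HF livers, and differed by -0.66 ± 0.10 (adjusted p = 7.14e-05), where Rpsa, a laminin receptor and small-subunit protein, was higher by 0.41. Snord49b differed by -0.86 ± 0.18 and Snord15b of Rps3 by -0.83 ± 0.16 (adjusted p = 0.00144 and 0.000694). Snora52 of Rplp2 fell by 0.51 (adjusted p = 0.00273), and Rplp2, a protein of the ribosomal stalk, by the same 0.51.

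Snord73b and Scarna13 were the largest of the higher RNAs. Snord73b measured 9.48, 9.44 and 9.30 in Ath+HF+BCAA livers, against 8.28, 8.29 and 8.16 in Ath+HF livers, with no overlap and a log2 difference of 1.16 ± 0.25 (adjusted p = 0.00213). Scarna13 was higher by 0.72 ± 0.20 (adjusted p = 0.0109). The nucleolin gene Ncl, a nucleolar protein gene, holds an RNA of each class, and they were called in opposite directions, with Snora75 higher by 0.57 ± 0.18 (adjusted p = 0.0213) and Snord82 at -0.60 ± 0.22 (adjusted p = 0.0484). With an array left out, 1 to 7 of the 54 RNAs were called higher in this comparison, so not every upward call was kept. Snord96a of Rack1 was higher by 0.47 ± 0.15 and Snord104 by 0.43 ± 0.15 (adjusted p = 0.0264 and 0.0401), and Snora23 differed by -0.50 ± 0.17 with overlapping arrays (adjusted p = 0.0341). Snora74a, which like Snora23 was higher at 68w than at 38w over both diets, differed by -0.73 ± 0.21 (adjusted p = 0.0125).

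**Figure D5:**
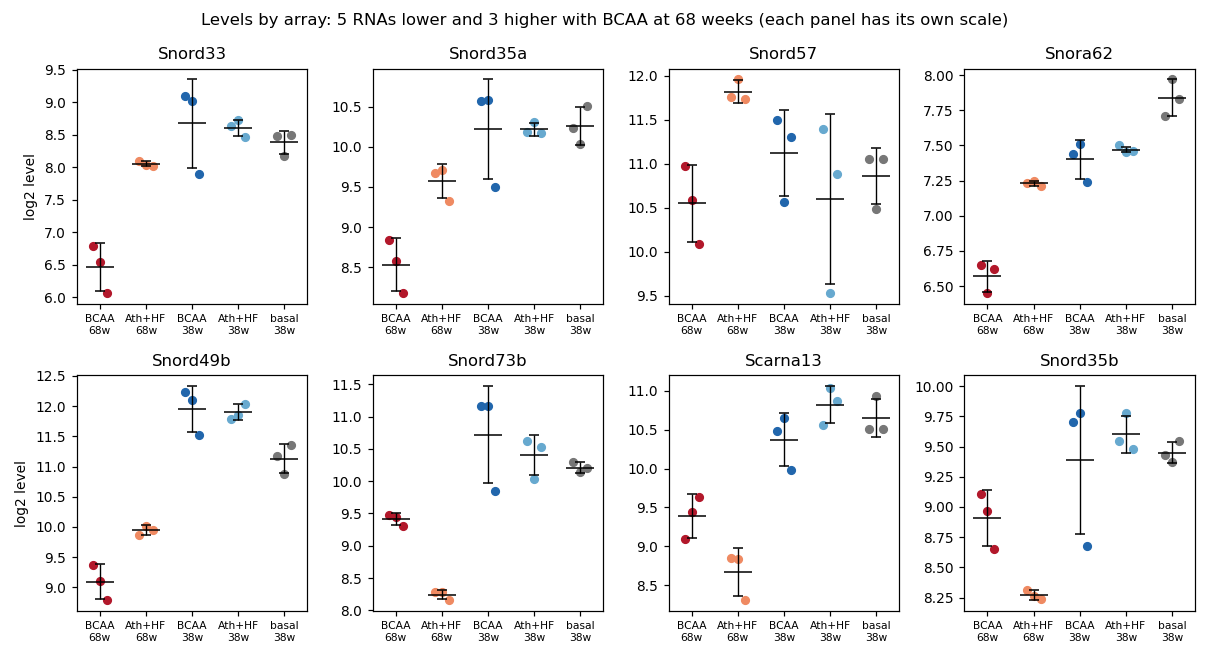
Log2 level on each of the 15 arrays (points, 3 for each group) with the group mean and SD (black), for 5 RNAs lower and 3 RNAs higher in Ath+HF+BCAA than in Ath+HF livers at 68w. The groups run from Ath+HF+BCAA at 68w on the left to basal diet on the right, and in the 8 panels the 3 arrays of both 68w groups do not overlap.

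At 38w no effect of BCAA was called. Of the 54 RNAs 0 were lower and 0 higher by limma (0% of all genes in each direction), and 8 had an unadjusted p under 0.05. The analysis of variance with Benjamini-Hochberg adjustment called 0, and with Bonferroni's method over the 10 pairs of groups it called 1. This was Snora44, at 10.45, 10.42 and 10.44 in Ath+HF+BCAA livers, against 11.09, 11.35 and 11.14 in Ath+HF livers, a log2 difference of -0.76 ± 0.13 with limma's adjusted p = 0.191. The difference of the BCAA effect between 68w and 38w was called for 5 RNAs downwards (9.26%) and 1 upwards (1.85%). By this measure 7.67% of all genes were lower and 12.9% higher, so the downward share lay near that of all genes. Snord57 had the largest value at -1.79 ± 0.52 (adjusted p = 0.0225), followed by Snord33 at -1.65 ± 0.35 (adjusted p = 0.00316), and Scarna13 was the one upwards at 1.17 ± 0.29 (adjusted p = 0.00804). Without replicate 3 of Ath+HF+BCAA at 38w 12 RNAs were called downwards and 1 upwards.

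Against basal diet, the diets changed few of the RNAs at 38w. In Ath+HF+BCAA livers 1 was lower and 1 higher, where 1.82% of all genes were lower and 3.67% higher. In Ath+HF livers 1 was lower and 2 higher, where 1.18% of all genes were lower and 3.05% higher. With array medians set equal the counts in Ath+HF livers were 2 lower and 1 higher, and with quantile normalization 1 and 1. Snord49b was called higher in each, with 12.24, 12.10 and 11.52 in Ath+HF+BCAA and 11.79, 11.86 and 12.04 in Ath+HF livers, against 11.17, 10.88 and 11.35 in basal livers. Its log2 difference was 0.82 ± 0.18 in Ath+HF+BCAA and 0.76 ± 0.18 in Ath+HF livers (adjusted p = 0.0138 and 0.0231). Snora62 was called lower in each, with 7.44, 7.51 and 7.24 in Ath+HF+BCAA and 7.50, 7.45 and 7.46 in Ath+HF livers, against 7.71, 7.97 and 7.83 in basal livers, and Snora44 was higher in Ath+HF livers by 0.51 ± 0.13 (adjusted p = 0.0427). Both comparisons use the same 3 basal arrays. The calls rested on few arrays: in Ath+HF livers 0 were called without replicate 2 or 3 of Ath+HF at 38w, and in Ath+HF+BCAA livers 0 without replicate 2 of basal diet, 1 without replicate 1 and 5 without replicate 3 of Ath+HF+BCAA at 38w. Of the 10 macrophage markers 7 were higher than in basal livers on each diet, and their part was not tested.

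The 68w groups were also set against basal diet at 38w, which joins diet and age. Of the 54 RNAs 29 were lower and 5 higher in Ath+HF+BCAA livers, where 21.8% of all genes were lower and 22.9% higher. In Ath+HF livers 23 were lower and 7 higher, where 19.1% of all genes were lower and 19% higher, and with array medians set equal 30 were lower and 4 higher. Snora16a differed by -3.96 ± 0.20 in Ath+HF+BCAA and by -3.75 ± 0.20 in Ath+HF livers, and Snora44 by -2.38 ± 0.13 and -2.09 ± 0.13. Snord49b, which was above basal diet at 38w, was below it at 68w, by -2.04 ± 0.18 in Ath+HF+BCAA and by -1.19 ± 0.18 in Ath+HF livers. Snora23 (0.67 and 1.16), Snord95 (1.09 and 0.99) and Scarna17 (0.65 and 0.64) were called higher in Ath+HF+BCAA and in Ath+HF livers.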

How the data were processed

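Liver RNA was hybridised to 15 GeneChip Mouse Gene 1.0 ST arrays, and samples were grouped by their labels alone. The authors summarised the arrays into deposited log2 values, by RMA in Affymetrix Expression Console according to the submitters' processing notes. Their versions are not given in the sources used here. No further normalization was applied in the main setting, where array medians ran from 6.91 to 7.16. Of 35556 transcript clusters 21789 had 1 gene symbol in the platform annotation, 1621 had several and 12146 had none here. Of those with several, 41 hold a snoRNA or scaRNA symbol and were left out of the 54. Each gene's brightest cluster was used. Of the 54 RNAs 6 had several clusters, identical in 3. Array platforms give no read depth, and the number of arrays limits the precision.

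A linear model with a mean for each group was fitted with limma 3.58.1 in R 4.3.3, which left 10 residual degrees of freedom, and gave 10 comparisons. Adjusted p-values are Benjamini-Hochberg over 19938 genes, and a gene was called under 0.05. The fit was tested on simulated data. Hosts are the shortest protein-coding, long noncoding or transcribed pseudogene gene that contains the RNA in RefSeq's table of GRCm38.p6. That table gives no strand, so the strand of the host was not checked. Some hosts are not reported here.

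The members and lists were chosen with earlier results of these data known. The RNAs named are, per class, up to 8 with the largest called age difference without overlap, up to 5 higher and 5 lower with BCAA at 68w, up to 5 by p in each other comparison, and the 2 of highest mean level and the 2 of smallest age difference per class, with all Cajal body RNAs and a fixed set (U8, U14, U17, Snord33, Snord35a and Snord35b). Snord49a, Snord73a and Snord95, as partners in a host, and Snora74a were named after their values had been seen. Alternatives were 2 other scalings, other summaries of clusters, a filter on dim genes (below 6.2), other fits and tests, the replicate number as a block, and leaving out each array.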

Additional observations from a re-analysis of the deposited data

Results flagged for a closer look

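For 6 RNAs the effect of BCAA differed between 68w and 38w by the test of that difference (limma, Benjamini-Hochberg adjusted). The difference, as the log2 effect of BCAA at 68w minus that at 38w, was -1.79 for Snord57 (effects of -1.27 at 68w and 0.52 at 38w), -1.65 for Snord33 (-1.59 and 0.07), -1.03 for Snord35a (-1.04 and 0.00 after rounding), -0.91 for Snord49b (-0.86 and 0.06), -0.59 for Snora62 (-0.66 and -0.07) and 1.17 for Scarna13 (0.72 and -0.45). These are 5 of 54 downwards (9.26%) and 1 upwards (1.85%), where 7.67% of all genes were called downwards and 12.9% upwards. The downward share thus lay near that of all genes, and the upward share below it. A swap of the labels of the 68w groups, which was not tested, would change all 6. Replicate 3 of Ath+HF+BCAA at 38w touches all of them. Without it 13 RNAs were called, 12 lower and 1 higher, all 6 among them, with -1.70 for Snord57, -2.05 for Snord33 and -1.39 for Snord35a. The arrays labelled Ath+HF+BCAA at 68w also had the higher macrophage and stellate cell markers given above, and their part in these values was not tested.

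A signal outside the 54 RNAs came from clusters annotated with several symbols, which are not assigned to a gene here. Of these, 24 are annotated jointly as Snord116l1, Snord116l2 and Gm26504, and 18 of the 24 hold identical values. They measured 8.50, 8.63 and 9.44 in Ath+HF livers at 68w, a mean of 8.86 on the log2 scale, above every basal array at 7.61, 6.97 and 7.18. In Ath+HF+BCAA livers at 68w they measured 6.44, 6.72 and 5.96.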

How the results depend on the processing

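The 37 RNAs called between the ages kept their direction under every alternative that could give a value, and 36 remained called with array medians set equal and 36 with quantile normalization of the deposited values. Without dim genes 33 of them were tested and all stayed called. Equal medians moved the median of all genes to -0.09 in this comparison, against 0.04 as deposited, and 34 RNAs were then lower and 6 higher. This scaling gave 30 lower and 5 higher in Ath+HF livers at 68w against 38w, 2 and 1 in Ath+HF at 38w against basal diet, and 30 and 4 in Ath+HF at 68w against basal diet, and quantile normalization gave 1 and 1 in Ath+HF at 38w against basal diet. Over all genes, deviations of arrays with the same replicate number correlated at -0.156 to 0.183, and of arrays with other numbers at -0.188 to 0.197. This check covers all genes and cannot decide whether the 54 RNAs share an effect of the replicate number. For them replicate 3 was mostly the lowest in some groups, as given above. With the replicate block 30 RNAs were lower and 7 higher between the ages, the same 37 RNAs, and in no comparison did the count of called RNAs, both directions together, move by over 1.5 times.

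Counts of called RNAs that moved by over 1.5 times were the following. With BCAA at 68w (16 in all) 26 were called in a fit of those groups alone, 9 by analysis of variance with Benjamini-Hochberg and 7 with Bonferroni's method, and 10 to 20 with an array left out. Between the ages in Ath+HF livers (32) Bonferroni's method gave 20. With BCAA at 38w (0) it gave 1. For Ath+HF at 38w against basal diet (3), 0 were called over all transcript clusters, 1 in a fit of those groups alone, 1 by analysis of variance with Benjamini-Hochberg and 0 to 3 with an array left out. For Ath+HF+BCAA at 38w against basal diet (2), 0 were called in a fit of those groups alone, 1 with array weights, 1 by analysis of variance and 0 to 5 with an array left out, the 5 without replicate 3 of Ath+HF+BCAA. The difference of the BCAA effect (6) gave 13 with array weights and 4 to 13 with an array left out. The cause of these shifts was not tested. With 3 arrays in a group, small differences of these RNAs could not be resolved.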

Other observations

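Some other short noncoding RNAs of the array were lower at 68w than at 38w, among them both Y RNAs and 4 of 5 Rnu RNAs, where 22.7% of all genes were lower. Rny3, a Y RNA that binds the Ro60 protein, measured 10.65, 10.53 and 10.53 in Ath+HF+BCAA and 11.60, 11.60 and 11.49 in Ath+HF livers at 68w, against 13.15, 13.00 and 13.30 in Ath+HF+BCAA and 13.16, 13.42 and 13.41 in Ath+HF livers at 38w. It differed by -2.17 ± 0.07 (limma, adjusted p = 7.61e-11), and Rny1 by -1.40 ± 0.23 (adjusted p = 0.000199). Rnu6, a spliceosomal RNA, differed by -1.60 ± 0.27 and Rnu3a, a copy of the C/D RNA U3 that acts in cleavage of the ribosomal RNA precursor, by -0.76 ± 0.14 (adjusted p = 0.000232 and 0.000439). Rn7sk, which holds the elongation factor P-TEFb inactive, differed by -0.01 ± 0.06 and Rpph1, the RNA of ribonuclease P, by 0.13 ± 0.14, and neither was called. Rmrp, the RNA of the related ribonuclease MRP, fell by 0.34 (adjusted p = 0.00965), while Terc, the telomerase RNA, differed by -0.25 ± 0.11 (adjusted p = 0.0745). Of 291 microRNA transcripts 58 were lower (19.9%) and 99 higher (34%), with a median of 0.10, where 22.7% of all genes were lower and 25.9% higher.

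The cluster annotated jointly as Snord34 and Rpl13a, which cannot be assigned to either, measured 7.36, 6.89 and 6.62 in Ath+HF+BCAA livers, against 8.57, 8.75 and 8.31 in Ath+HF livers at 68w. The other cluster annotated with Rpl13a, jointly with Snord32a, measured 10.66, 10.36 and 9.71 in Ath+HF+BCAA livers, against 10.65, 10.56 and 10.45 in Ath+HF livers at 68w, and these arrays overlap. The one annotated as Snord68 and Rpl13 measured 5.96, 5.50 and 5.19 in Ath+HF+BCAA livers, against 7.65, 7.69 and 7.24 in Ath+HF livers at 68w.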
